A study of Mus musculus with 4 samples.

Results

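Live CD45+ F4/80- IL7Ra+ cells were sorted from the embryonic periphery of C57BL/6J mouse embryos at 2 embryonic stages, E13.5 and E14.5, and 1 single-cell RNA library was made at each stage. The cells described here come from the 2 libraries labelled as embryonic periphery. A barcode was kept with at least 500 detected genes and at most 10% of its unique molecular identifiers (UMIs) in genes of the mitochondrial genome. That left 8810 cells, 4305 at E13.5 and 4505 at E14.5, of 31153 cells kept by the same rule over all 4 libraries of the study. The study concerned the layered origin of lymphoid tissue inducer (LTi) cells, and its other 2 libraries hold cells of the same gate from fetal liver at the same stages. The labels give the strain as C57 Bl/6 in all groups, with no transgene, deletion or treatment. CD45, a protein of white blood cells, was used for magnetic enrichment and again in the sort. F4/80 is a surface protein of macrophages, and IL7Ra is the alpha chain of the interleukin 7 receptor. The sources used here do not give the number of embryos behind each library, whether they were pooled, or which tissues were taken as periphery. With 1 library per stage no difference below has a replicate check, no test was made, and every statement describes these libraries.

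LTi cells are fetal innate lymphocytes that gather at the sites of future lymph nodes and Peyer's patches. They display lymphotoxin and RANK ligand, which act on stromal cells that then draw in further blood cells. Their development needs Id2, which keeps E proteins from binding DNA. Like other lymphocytes of the embryo they depend on interleukin 7, and they follow the chemokine CXCL13 through CXCR5.

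The kept cells held 52923243 UMIs at E13.5 and 44154686 at E14.5, with medians of 11172 and 8580 UMIs and 2793 and 2695 genes per cell. The names of the deposited matrices carry the same run identifier for both periphery libraries. Among the kept cells 30 barcodes occurred in both periphery libraries, and 27 occurred in both fetal liver libraries. When every cell with at least 4000 UMIs was drawn down to that number (thinned), which left out 217 and 303 cells, the median was 1512 genes at E13.5 and 1682 at E14.5. Ribosomal protein genes took 27.8% of UMIs at E13.5 and 22.8% at E14.5, and genes of the mitochondrial genome took 2.64 and 3.03%. Haemoglobin genes took 0.0339 and 0.00344%. The gate was checked against its genes. Il7r, which encodes IL7Ra, had a UMI in 79.9% of cells at E13.5 and 87.9% at E14.5 (53.0 and 73.5% after thinning). Ptprc, the gene of CD45, stood at 62.1 CPM at E13.5 and 65.6 CPM at E14.5. Adgre1, the gene of F4/80, stood at 8.69 and 6.75 CPM, under the 10 CPM (counts scaled to the same total in each library) taken here as measured.

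The protocol names the sorted cells LTi cells, and the data hold other cells beside them. Marker classes were drawn from thinned cells, each cell going to the list of which at least 3 genes had a UMI and more than of any other list. The LTi list (8 genes, among them Cxcr5, Ccr6, Il23r, Lta, Tnfsf11, Il1r1 and Il17re) took 25.0% of cells at E13.5 (exact 95% interval 23.7 to 26.4) and 50.5% at E14.5 (48.9 to 51.98). B lineage markers took 7.39 and 7.90%, and markers of lymphoid or plasmacytoid progenitors 6.41 and 0.309%. Monocyte or macrophage markers took 4.50 and 1.21%, and T cell genes, of which LTi cells also carry UMIs, 14.4 and 10.1%. A further 39.9 and 28.0% of cells reached no class. Mast cell or basophil markers took 1.49 and 1.57%, group 1 ILC or NK markers 0.563 and 0.309%, and each other list under 0.1%. All intervals cover counting error only, and the shares refer to cells of this gate. They depend on depth and on the number of markers required. At 2000 UMIs per cell the LTi class held 10.7 and 24.2% of cells, and at 8000 UMIs 35.9 and 62.4%.

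Promoters of 4 genes that the results turn on are shown so that the letters near their start sites can be read beside the values below. Id2, Cxcr6 and Hk2 were higher at E14.5 over all cells and within the LTi class, and Hspa1a was lower. Each sequence runs from 250 bases before to 50 bases after the RefSeq start site on GRCm38.p6, and 4 of 4 symbols matched. A script searched both strands for the RUNX motif TGTGGT, the heat shock element GAANNTTC, the AP-1 motif TGANTCA and the E-box CACGTG, and capitals mark a match.
Id2, chr12:25096043-25096342, minus strand: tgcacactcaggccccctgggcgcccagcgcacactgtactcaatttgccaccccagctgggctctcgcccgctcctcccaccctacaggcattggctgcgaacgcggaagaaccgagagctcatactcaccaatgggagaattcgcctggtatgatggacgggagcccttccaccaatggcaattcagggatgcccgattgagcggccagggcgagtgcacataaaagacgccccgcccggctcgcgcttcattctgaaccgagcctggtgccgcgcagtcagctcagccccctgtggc
Cxcr6, chr9:123806227-123806526, plus strand: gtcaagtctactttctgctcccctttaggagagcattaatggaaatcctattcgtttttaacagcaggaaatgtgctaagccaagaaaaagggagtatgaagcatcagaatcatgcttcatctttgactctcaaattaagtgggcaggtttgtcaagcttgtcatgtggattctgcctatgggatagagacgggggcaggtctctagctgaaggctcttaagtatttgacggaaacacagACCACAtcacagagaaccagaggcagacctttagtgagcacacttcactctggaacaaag
Hk2, chr6:82774405-82774704, minus strand: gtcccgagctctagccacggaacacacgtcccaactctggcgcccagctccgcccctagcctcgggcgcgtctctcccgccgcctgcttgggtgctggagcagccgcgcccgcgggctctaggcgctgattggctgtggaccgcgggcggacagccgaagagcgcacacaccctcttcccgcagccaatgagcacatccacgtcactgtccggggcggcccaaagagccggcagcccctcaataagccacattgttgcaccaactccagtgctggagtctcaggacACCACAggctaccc
Hspa1a, chr17:34972107-34972406, minus strand: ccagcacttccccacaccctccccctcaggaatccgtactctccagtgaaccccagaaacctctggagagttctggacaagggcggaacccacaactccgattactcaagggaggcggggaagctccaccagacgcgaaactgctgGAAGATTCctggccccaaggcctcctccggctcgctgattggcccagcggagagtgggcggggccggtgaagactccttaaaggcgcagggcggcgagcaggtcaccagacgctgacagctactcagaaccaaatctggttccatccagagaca
The Cxcr6 window held the RUNX motif as ACCACA, its reverse complement, starting 10 bases before the start site, and the Hk2 window held the same letters starting 36 bases after it. The Hspa1a window held 1 heat shock element, GAAGATTC, starting 104 bases before the start site, and the Id2 window held none of the 4 motifs. Of 32851 mouse promoter windows of this length 16.8% held the RUNX motif, 7.86% the heat shock element, 7.81% the AP-1 motif and 7.15% the E-box. These matches describe letters only.

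Levels over all kept cells are given as CPM, a gene's share of the library's UMIs on that scale, with the exact Poisson 95% interval in parentheses where the gene is central. The change of a gene is the log2 fold of E14.5 over E13.5 after 5 CPM were added to both sides, minus the median of all measured genes, which was 0.23. Adding 5 CPM understates the change of weakly detected genes. Genes with at least 10 CPM in either library were measured, and a log2 fold of 1 or more in either direction is called higher or lower. Of 7246 measured genes 105 were higher at E14.5, which is 1.45%, and 167 were lower, which is 2.3%. Without taking off the median 235 were higher and 107 lower. After centring, the median of all measured genes is 0, and each list below is read against that median and these shares. In bulk sums fewer cells of a type and less RNA per cell cannot be told apart.

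**Figure D1:**
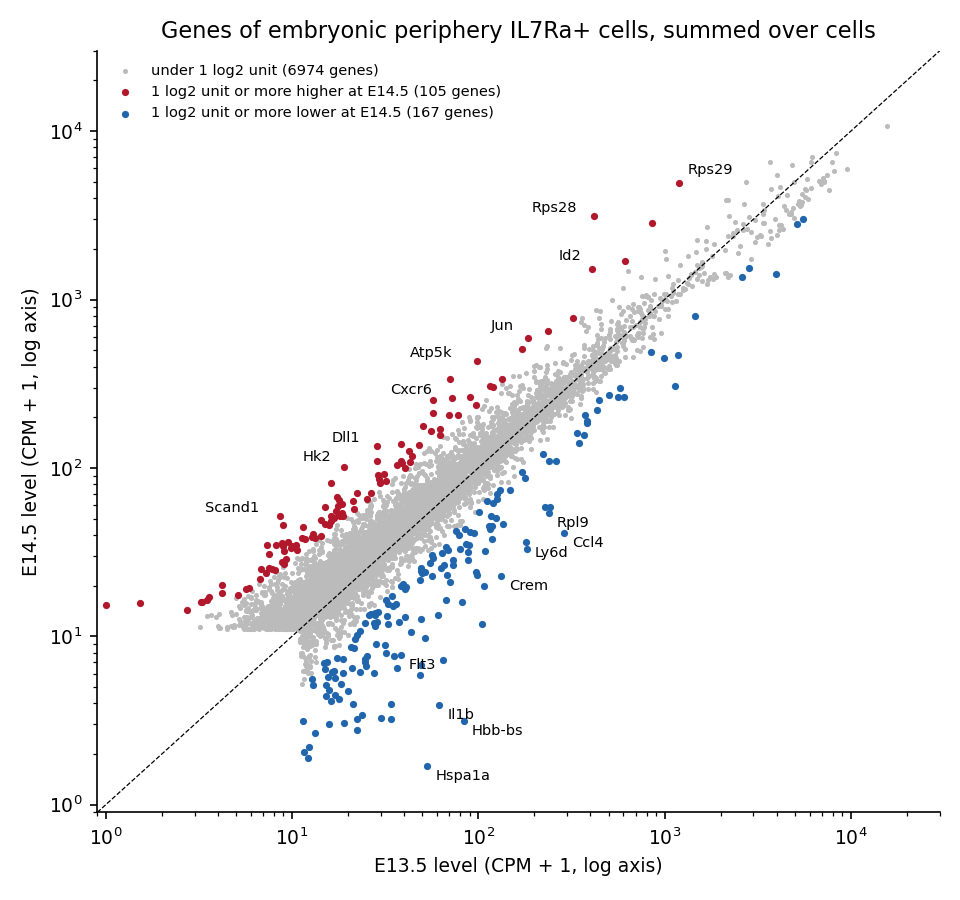
CPM plus 1 of each measured gene in the E13.5 (x axis) and E14.5 (y axis) periphery library, both axes logarithmic, each point a gene, with called genes in colour and genes described in the text labelled. Id2 sits above the diagonal at 405 and 1522 CPM, and Hspa1a and Il1b lie far below it.

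Transcription factors of LTi cells were mostly above the median of all genes at E14.5, led by Id2. Of 22 listed factors 21 were measured, 19 lay above 0 and 2 below, 3 were called higher and none lower, and the list's median log2 fold was 0.52. Id2 (ENSMUSG00000020644, chr12:25093799-25097140 on GRCm38) stood at 405 CPM (399.6 to 410.5) at E13.5 and 1522 CPM (1510.4 to 1533) at E14.5, a log2 fold of 1.67. Its share of cells with a UMI went from 64.4% to 90.7% after thinning and from 79.5% to 92.5% without it, and a cell with a UMI held 2.77 and 7.58 UMIs on average. Most of the Id2 difference was therefore in the number of UMIs per positive cell (log2 1.45) and less in the share (0.49). At E13.5 1.79% of thinned cells held 8 to 15 Id2 UMIs and 0.0245% held more, and at E14.5 36.9% and 4.38% did. In B lineage-marker cells, which should lack it, Id2 had a UMI in 6.29% of thinned cells at E13.5 and 18.4% at E14.5. Median depths there were 14581 and 19159 UMIs, against 9518.5 and 8009.5 in the LTi class.

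Bhlhe40, a basic helix-loop-helix repressor, and Maf, a factor of type 3 lymphocytes, were the other called factors. Bhlhe40 stood at 35.6 CPM at E13.5 and 103 CPM at E14.5, a log2 fold of 1.19, and Maf at 41.9 and 108 CPM, a log2 fold of 1.04. Ets1 (log2 fold 0.78), Tox2 (0.84), Runx3 (0.52) and Gata3 (0.47) lay above 0 without being called. Runx1, which partners with the same cofactor as Runx3, was the lowest of the list at 33.9 and 30.1 CPM, a log2 fold of -0.38. The share of cells in the LTi class moved with these factors, from 25.0 to 50.5%. Within that class 18 factors outside its own markers were measured and their median was 0.30. With an equal mix of marker classes in both libraries the median of LTi factors was 0.35 over all cells. Within the class Id2 (1.43) and Ikzf3 (1.02), an Ikaros family gene, were called higher.

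**Figure D2:**
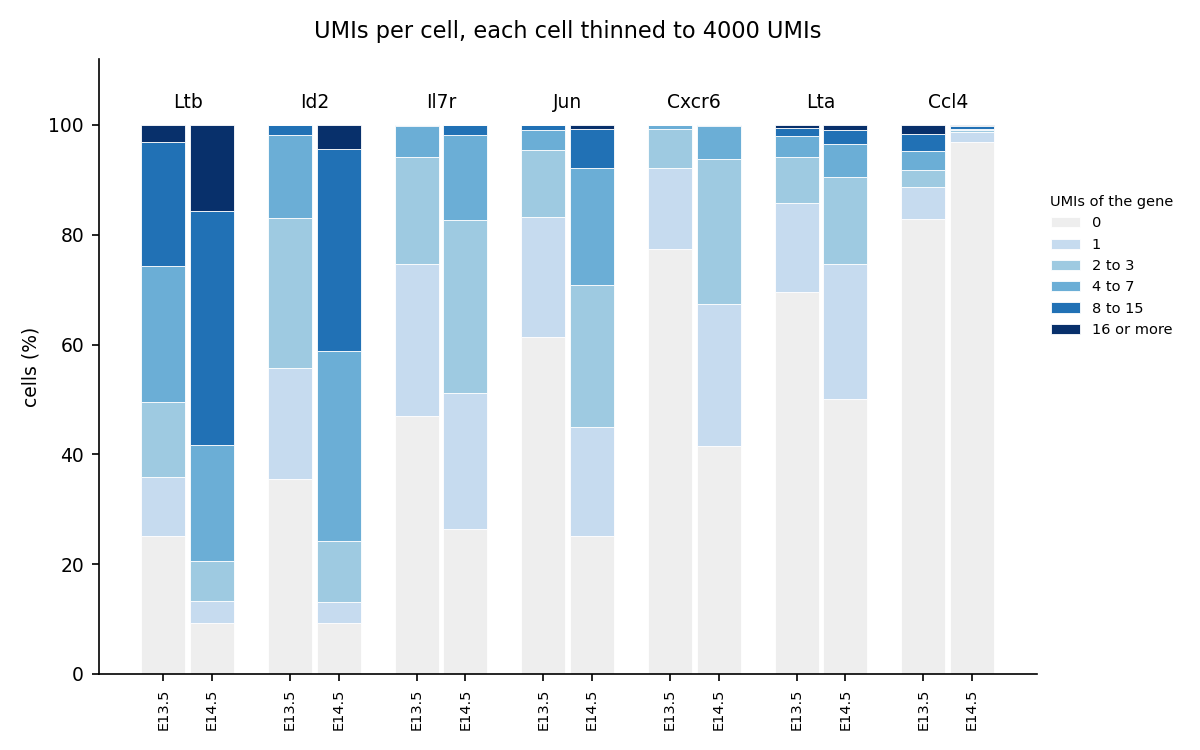
Stacked bars of the percent of thinned cells (y axis) with 0, 1, 2 to 3, 4 to 7, 8 to 15 and 16 or more UMIs (light to dark) of 7 genes, with 1 bar each for the E13.5 and the E14.5 periphery library (x axis). Cells without an Id2 UMI made up 35.6% at E13.5 and 9.33% at E14.5, and for Ccl4 the order of the libraries is the other way round.

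Chemokine and cytokine receptors of LTi cells were also above the median, with Cxcr6 in the lead. Of 30 listed surface receptors 26 were measured, 20 lay above 0 and 6 below, 4 were called higher and 1 lower, and the median was 0.52. Cxcr6 (ENSMUSG00000048521, chr9:123806475-123811760), the receptor of CXCL16, stood at 71.6 CPM (69.4 to 73.9) at E13.5 and 259 CPM (255 to 264) at E14.5, a log2 fold of 1.56. The share of cells with a Cxcr6 UMI went from 22.7% to 58.5% after thinning and from 37.3% to 72.9% without it, with 1.51 and 2.01 UMIs per positive cell. B lineage-marker cells had a Cxcr6 UMI in 0.662 and 4.52% of thinned cells. Il23r, the receptor chain specific for interleukin 23, stood at 8.11 and 31.2 CPM (log2 fold 1.24), and Ccr6, the receptor of CCL20, at 28.6 and 80.4 CPM (1.11). Il27ra was higher as well, at 6.25 and 22.6 CPM (1.07). Il23r was not called with an equal mix of marker classes (0.76) or with 20 CPM added in place of 5 (0.71). It serves to draw the LTi class, so the equal mix cannot judge its call.

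Receptors used to place LTi cells in lymph node sites changed less. Cxcr5 stood at 66.7 CPM (64.5 to 68.9) at E13.5 and 117 CPM (114 to 120.05) at E14.5, a log2 fold of 0.54. Il7r, the gene of the sorting marker, stood at 212 CPM (208 to 216) at E13.5 and 395 CPM (389 to 401) at E14.5, a log2 fold of 0.65, and since the gate selects its protein this value describes the gate as well as the cells. Integrin genes Itga4 (-0.06) and Itgb7 (-0.10), whose products pair as the gut homing receptor, lay near 0. Ccr9, a gut and thymus homing receptor, was the 1 lower receptor, at 42.5 CPM at E13.5 and 9.63 CPM at E14.5, a log2 fold of -1.93. Its share of cells went from 10.5% to 1.90% after thinning and from 18.5% to 3.22% without it. Ccr9 had a UMI in 1.17% of LTi-class cells at E13.5, so its change lay mainly outside that class, and the progenitor class moved with it from 6.41 to 0.309% of cells. With an equal mix of marker classes the log2 fold of Ccr9 was -1.04 and the median of LTi surface receptors 0.25. Cxcr5, Ccr6 and Il23r serve to draw the LTi class, so that setting cannot judge the receptor median. The progenitor class in the mix held 13 cells at E14.5, so the Ccr9 value rests on few cells there. The part of the progenitor class in the result was not tested.

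Lymphotoxin genes were higher at E14.5 by less than the size of a call. Of 14 listed TNF family ligands 6 were measured and none was called, with a median of 0.49. Ltb (ENSMUSG00000024399, chr17:35194439-35196320), the membrane anchor of the lymphotoxin heterotrimer, stood at 1004 CPM (995 to 1012) at E13.5 and 1940.1 CPM (1927 to 1953) at E14.5, a log2 fold of 0.72. It had a UMI in 74.8 and 90.7% of thinned cells, and a positive cell held 6.41 and 10.1 UMIs. Lta, the other lymphotoxin chain, stood at 166 CPM at E13.5 and 304 CPM at E14.5, a log2 fold of 0.63. Tnfsf11, which encodes RANK ligand, stood at 59.8 and 67.1 CPM (-0.07). Tnfsf9, the ligand of 4-1BB, was the lowest at -0.88. Within the LTi class, Ltb came to 1911 CPM at E13.5 and 2619 CPM at E14.5 (0.22), and Tnf was called higher there (1.05).

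Secreted cytokines and chemokines lay more often below the median. Of 22 listed genes 15 were measured, 6 lay above 0 and 9 below, 1 was called higher and 6 lower, and the median was -0.62. Ccl4 (ENSMUSG00000018930, chr11:83662584-83664683), a chemokine of activated lymphocytes and myeloid cells, stood at 287 CPM (282 to 291) at E13.5 and 40.3 CPM (38.4 to 42.2) at E14.5, a log2 fold of -2.92. Its share of cells went from 17.1% to 3.07% after thinning and from 25.0% to 5.48% without it. Il1b, a cytokine made mostly by myeloid cells, stood at 60.9 CPM at E13.5 and 2.92 CPM at E14.5 (-3.28), and its share of cells went from 5.50% to 0.381% after thinning and from 10.1% to 0.955% without it. Ccl5 stood at 602 and 263 CPM (-1.41), and Areg, a growth factor of the EGF family, at 123 and 49.6 CPM (-1.46). Il13 (-1.21) and Cxcl10 (-1.01) were the other lower genes.

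The 1 higher gene of this list was Tgfb1, at 8.56 CPM at E13.5 and 35.4 CPM at E14.5 (1.35). Tgfb1 also gave 1.33 in cells outside the LTi class and 1.23 in B lineage-marker cells. In fetal liver cells of the same gate it stood at 280 and 260 CPM. Il22, a cytokine of type 3 lymphocytes and the most abundant of the list in the E14.5 library, stood at 639 and 1474 CPM, a log2 fold of 0.97 just under the size of a call. Il17a (0.09) and Il17f (0.02) lay near 0. Myeloid, group 1 ILC and group 2 ILC markers moved with the lower genes. The group 1 ILC or NK list itself holds Ccl5, and the group 2 ILC list holds Areg and Il13. Sums of those lists are therefore no separate sign of fewer such cells. Summed monocyte or macrophage markers came to 544 CPM at E13.5 and 323 CPM at E14.5, with none of the 10 at 0 in either library. Group 1 ILC or NK markers came to 791 and 398 CPM, none of 10 at 0, with Klrd1 at 117 and 43.9 CPM, and group 2 ILC markers to 175 and 89.2 CPM, with 1 of 8 at 0 in the earlier library and none in the later. Among LTi-class cells Ccl4 (-2.52), Areg (-2.00), Ccl5 (-1.87), Cxcl10 (-1.41) and Ccl3 (-1.13) were called lower, and Tgfb1 higher (1.39). The part of other cells in these levels was not tested.

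In the Notch pathway the ligand and a target were higher and the receptor was not. Of 18 listed genes 7 were measured, 5 above 0 and 2 below, with a median of 0.15. Dll1 (ENSMUSG00000014773, chr17:15367354-15376872), a Delta ligand, stood at 27.8 CPM (26.4 to 29.2) at E13.5 and 135 CPM (131 to 138) at E14.5, a log2 fold of 1.86, and its share of cells went from 12.01% to 41.1% after thinning and from 23.4% to 59.7% without it. Hes1, a transcriptional target of Notch, stood at 7.80 CPM at E13.5 and 34.7 CPM at E14.5, a log2 fold of 1.40. Notch1 was the lowest member, at 20.3 and 16.5 CPM (-0.47), and Rbpj, the DNA-binding factor of the pathway, gave 0.10. In the LTi class Dll1 (1.45) and Hes1 (1.36) were again the 2 called members.

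Glycolysis genes moved apart from each other. Of 21 listed genes 20 were measured, 10 on each side of 0, with a median of -0.06. Hk2 (ENSMUSG00000000628, chr6:82725025-82774454), the inducible hexokinase of the entry step, stood at 18.1 CPM (16.9 to 19.2) at E13.5 and 99.97 CPM (97.0 to 103) at E14.5, a log2 fold of 1.958. Its share of cells went from 7.22% to 30.7% after thinning and from 17.5% to 48.6% without it, with 1.08 and 1.44 UMIs per positive cell. Pgk1 (ENSMUSG00000062070, chrX:106187100-106203699), a later enzyme of the pathway, stood at 18.1 CPM (17.0 to 19.3) at E13.5 and 2.04 CPM (1.64 to 2.51) at E14.5, a log2 fold of -1.94. In fetal liver cells of the same gate Pgk1 stood at 664 and 580.3 CPM. Eno1 was lower too, at 443 and 252 CPM (-1.03), and 90.04% of the 50-base words of its last 300 bases occur in another gene. Gapdh stood at 519.8 and 995 CPM (0.70) and Hk1, the constitutive hexokinase, at 15.8 and 35.6 CPM (0.73). In the LTi class and in B lineage-marker cells Pgk1 gave -1.77 and -1.85, and Hk2 1.81 and 1.005.

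Immediate early genes, which are induced quickly by many stimuli, moved in both directions. Of 26 listed genes 21 were measured, 10 above 0 and 11 below, 2 were called higher and 7 lower, and the median was -0.06. Jun (ENSMUSG00000052684, chr4:95049034-95052222) stood at 185 CPM (181 to 188) at E13.5 and 589.9 CPM (583 to 597) at E14.5, a log2 fold of 1.42. Its share of cells went from 38.7% to 74.9% after thinning and from 60.3% to 87.7% without it, and a positive cell held 2.01 and 3.69 UMIs. Dusp1, a phosphatase of MAP kinases, was also called higher (61.6 and 155 CPM, log2 fold 1.04), and Fos lay below a call (427 and 863 CPM, log2 fold 0.78).

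Crem (ENSMUSG00000063889, chr18:3266048-3337748), a cyclic AMP responsive factor, was the lowest member, at 132 CPM (129 to 135) at E13.5 and 22.0 CPM (20.6 to 23.4) at E14.5, a log2 fold of -2.57. Fosl2 (-1.56), Dusp2 (-1.60), Ier3 (113 and 44.0 CPM), Fosb (-1.14), Nr4a2 (-1.14) and Nr4a1 (-1.09) were lower as well. In the LTi class 9 of 22 measured members were called, among them Jun (1.58) and Crem (-2.98). In B lineage-marker cells Jun was 139 CPM at E13.5 and 151 CPM at E14.5 (-0.04), while Crem was lower there too (-1.72). The difference between the classes was not tested.

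A single heat shock gene was called. Hspa1a (ENSMUSG00000091971, chr17:34969190-34972156), an inducible chaperone, stood at 52.2 CPM (50.3 to 54.2) at E13.5 and 0.702 CPM (0.477 to 0.997) at E14.5, a log2 fold of -3.56. Its share of cells went from 9.08% to 0.167% after thinning and from 16.8% to 0.577% without it. The other 10 measured members of 14 listed lay between -0.81 for Hspe1 and 0.33 for Hspa5, and the list's median was -0.08. Hspa8, the constitutive member, stood at 3356 and 3712 CPM (-0.08).

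Genes of the NF-kB pathway were centred on 0. Of 20 listed genes 19 were measured, 10 above 0 and 9 below. Nfkb2, the precursor of the alternative pathway's subunit that signals from the lymphotoxin receptor, stood at 39.3 and 99.2 CPM, a log2 fold of 1.005 at the limit of a call. With marked doublets left out it came to 0.98, and without the trend in length to 0.89. Rel (48.5 and 24.6 CPM, log2 fold -1.08) and Nfkb1 (100.2 and 53.4 CPM, log2 fold -1.08), subunits of the classical pathway, were called lower. Rel was not called without centring (-0.85) or with 20 CPM added (-0.77). In the LTi class Rel (-1.33) and Nfkb1 (-1.19) were called again, Nfkb2 was not (0.55), and in B lineage-marker cells they gave -0.46 and -0.36.

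Lymphoid progenitor genes were lower as a group. All 16 measured of 20 listed lay below 0, 9 were called lower, and the median was -1.12. Siglech, a receptor of plasmacytoid cells and their precursors, stood at 33.0 CPM at E13.5 and 2.24 CPM at E14.5 (-2.62). Ly6d, which marks B lineage-primed progenitors, stood at 179 CPM (176 to 183) at E13.5 and 35.4 CPM (33.6 to 37.2) at E14.5 (-2.42). Its positive cells held 13.3 and 4.48 UMIs each, so here the level moved more than the share of cells. Flt3, the cytokine receptor of multipotent progenitors, stood at 37.3 and 6.79 CPM (-2.07), Cd34 at 97.8 and 22.0 CPM (-2.16) and Cox6a2 at 106 and 18.96 CPM (-2.44). Irf8 (-1.35), Cd27 (-1.18), Mef2c (-1.06) and Hmga2 (-1.90) were the others, and Sox4 was nearest to 0 (-0.10).

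Progenitor-class cells moved with this group, from 6.41 to 0.309% of cells, and that class was drawn from 6 of the 9 lower genes. Summed markers of that list came to 507 CPM at E13.5 and 104 CPM at E14.5, with 1 of 8 at 0 in the later library and none in the earlier. Within the LTi class the median of 11 measured members was -0.38, and Cd34 (-1.46), Flt3 (-1.05) and Ifitm1 (-1.48) were called lower. Flt3 stood there at 10.5 and 3.83 CPM, close to the 10 CPM minimum, with a UMI in 3.91 and 1.13% of thinned class cells. For Cd34 these shares were 13.8 and 5.47%. With an equal mix of classes in both libraries the median of lymphoid progenitor genes was -0.58. Siglech came to -0.37 and Ly6d to -0.24 and were not called in that setting. Both genes serve to draw the progenitor class, which held 13 cells at E14.5, so that setting cannot judge their calls.

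Both the E proteins and their Id inhibitors had members above and below 0. Of 7 listed genes 6 were measured and Id2 was the 1 called. Tcf3 (28.6 and 66.7 CPM, log2 fold 0.87), Id3 (0.60) and Tcf12 (0.27) lay above 0, and Tcf4 (-0.34) and Id1 (10.8 and 5.34 CPM, log2 fold -0.84) below.

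Of the fetal program, 12 listed genes with 9 measured, Meg3, an imprinted non-coding RNA, was higher (10.5 and 43.9 CPM, log2 fold 1.43). Hmga1 (48.5 and 5.75 CPM, log2 fold -2.54) and Hmga2 (48.0 and 11.6 CPM, log2 fold -1.90), chromatin proteins of immature cells, were lower. Hmga1 shares 78.5% of its 3′ end words with another gene. Among LTi-class cells Meg3 (1.23), Hmga1 (-2.46) and H19 (-1.41) were called.

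Interferon response genes lay mostly below 0, with 12 of 16 measured members below, 2 called lower, and a median of -0.75. Isg15, a ubiquitin-like protein induced by interferon, stood at 36.7 and 11.1 CPM (-1.60), and Ifitm3 gave -1.13. With an equal mix of marker classes the median of interferon response genes was -0.30. Irgm1, a GTPase induced by interferon gamma, was the highest member at 0.70. MHC class I presentation genes gave a median of 0.19 with none of 12 called, from -0.50 for Psmb9 to 0.48 for Tap2. Of 7 measured MHC class II genes only H2-DMa was called (-1.27), and H2-Ab1 gave 0.50. That call was lost with an equal mix of marker classes (-0.66) and with 20 CPM added (-0.89). In B lineage-marker cells H2-Ab1 gave 1.01 and H2-Aa 1.54.

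Cell cycle genes were nearly level. None of 24 S phase genes and none of 24 G2 and M phase genes was called, and their medians were 0.14 and 0.20. The S phase genes ran from -0.66 for Dut to 0.62 for Ccne1, and the G2 and M phase genes from -0.29 for Cdk1 to 0.52 for Nusap1. Of 37 measured proteasome subunits none was called either, with a median of -0.17 and a standard deviation over genes of 0.204. Cholesterol synthesis genes gave -0.18 with 1 of 15 called, Fdps (79.1 and 31.8 CPM, log2 fold -1.42), of whose 3′ end words 70.5% occur elsewhere. Among 6 measured glutathione S-transferase genes Gstp1 (63.6 and 6.27 CPM, log2 fold -2.83), Mgst2 (-1.13) and Gsto1 (-1.08) were lower. Gstp1 shares its whole 3′ end with a copy.

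Cytosolic ribosomal proteins are needed in equal numbers in the ribosome, yet their genes spread widely here. Of 78 measured genes 15 lay above 0 and 63 below, 6 were called higher and 8 lower, and the median was -0.65. Their folds had a standard deviation over genes of 0.818 in periphery and 0.118 in fetal liver between the same stages. Rps28 (ENSMUSG00000067288, chr17:33819027-33824562), with a transcript of 392 bases, stood at 418 CPM (412 to 423) at E13.5 and 3118 CPM (3101 to 3134) at E14.5, a log2 fold of 2.66. It had a UMI in 80.8 and 99.98% of thinned cells, and a positive cell held 2.11 and 12.9 UMIs. Rps29 (390 bases) stood at 1199.9 and 4932 CPM (1.81), and Rpl38 gave 1.49. In the other direction Rpl9 stood at 238 and 53.2 CPM (-2.29) and Rpl23a at 241 and 57.5 CPM (-2.21). In B lineage-marker cells Rps28 gave 2.77, Rps29 1.80, Rpl23a -2.16 and Rpl9 -1.86. Of the 50-base words at the 3′ end of these genes 64.5% of those of Rps28, 48.6% of Rps29, 80.9% of Rpl23a and 100% of Rpl9 occur in another gene, so how their UMIs were divided between copies is uncertain. A wide spread was also seen in the 28 ribosomal protein genes of 600 bases or more with under 20% of such words shared. Their median was -0.70, and their standard deviation was 0.626 in periphery and 0.118 in fetal liver.

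Transcripts of up to 400 bases and transcripts with shared ends were called higher more often than other genes. Lengths are those of the principal transcript, and the shared end is the percent of 50-base words of the last 300 bases that occur in another gene. Of 26 measured genes of up to 400 bases 7 were called higher, or 26.9%, against 1.45% of all genes, and none lower. Their median was 0.36, while 236 genes of over 600 and up to 800 bases had a median of -0.32 with 8.47% lower. Atp5k, an ATP synthase subunit of 371 bases, stood at 96.9 CPM (94.2 to 99.5) at E13.5 and 429.99 CPM (424 to 436) at E14.5 (1.87). The complex I subunit mt-Nd3 of the mitochondrial genome (348 bases) stood at 88.9 and 261 CPM (1.275). Of its end words 98.8% occur in another gene, so its value is uncertain. Scand1, a SCAN domain gene of 759 bases without shared end words, gave 1.92 at 7.61 and 51.0 CPM.

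In 322 genes with at least 20% of their end shared 6.52% were called higher and 8.07% lower, with a standard deviation over genes of 0.769. In the other 6917 genes with a length and an end the shares were 1.21 and 2.02% and the standard deviation 0.416. Copies of ribosomal genes were among the extremes, with Rps27rt at 1.97, Gm10073 at -2.56 and Gm10020 at -2.34, and 88.5 and 100% of the end words of Rps27rt and Gm10020 occur elsewhere. UMIs of such genes can be split differently between copies by the counting, so their values are uncertain. Of the called genes 80 of 105 higher and 137 of 167 lower were neither under 600 bases nor shared. The part of length and of shared ends in the single folds was not tested. Taking off the trend of the fold with length left 114 genes higher and 145 lower, and Id2, Cxcr6, Dll1, Hk2, Jun, Crem, Ccl4 and Hspa1a were still called.

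**Figure D3:**
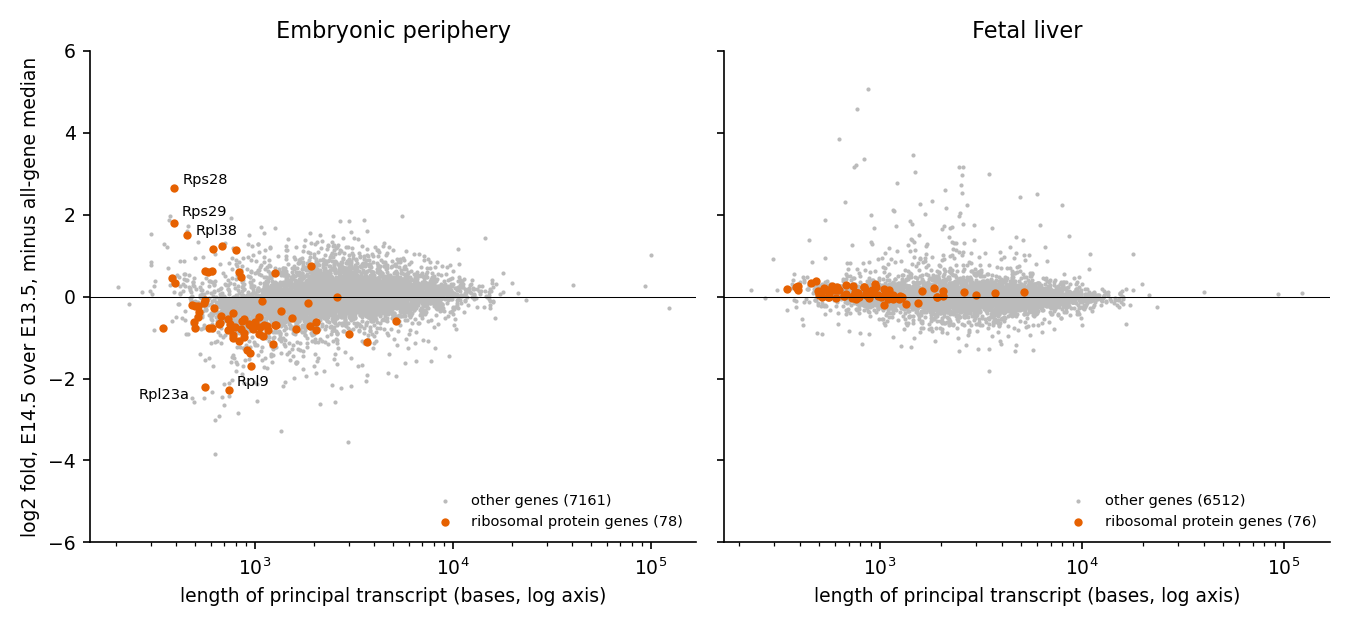
Log2 fold of E14.5 over E13.5 minus the median (y axis) against transcript length in bases on a logarithmic x axis, each point a measured gene, for periphery and for fetal liver, with ribosomal protein genes in colour. In periphery the ribosomal protein genes spread from -2.29 to 2.66, and in fetal liver they lie between -0.20 and 0.38.

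Each change was split into the share of cells with a UMI and the mean UMIs per positive cell, in thinned cells, where the product of both is the mean per cell. The split could be made for 104 of the 105 higher genes and all 167 lower genes. Iglc2, an immunoglobulin light chain gene, had 0 UMIs at E13.5 and 14.4 CPM at E14.5 and could not be split. The share was the larger part in 98 higher and 141 lower genes. Among all genes that could be split, the level was under 1.5 UMIs in both libraries for 71 higher and 81 lower genes. There a level cannot fall and hardly shows a rise, so the counts of 98 and 141 say little. Of genes with a level of at least 2 UMIs in either library, the share was the larger part in 14 of 20 higher and 31 of 57 lower genes.

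Scand1 showed the largest share part among called higher genes of at least 50 CPM, with thinned shares of 2.69 and 19.9%. Hspa1a had the largest among lower genes, with 9.08 and 0.167%, and Il1b followed with 5.50 and 0.381%. Id2, Rps28 and Rps29 changed chiefly in level. Haemoglobin genes did so in the other direction. Hbb-bs had a UMI in 0.734 and 0.904% of thinned cells, and its positive cells held 54.5 and 1 UMIs.

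**Figure D4:**
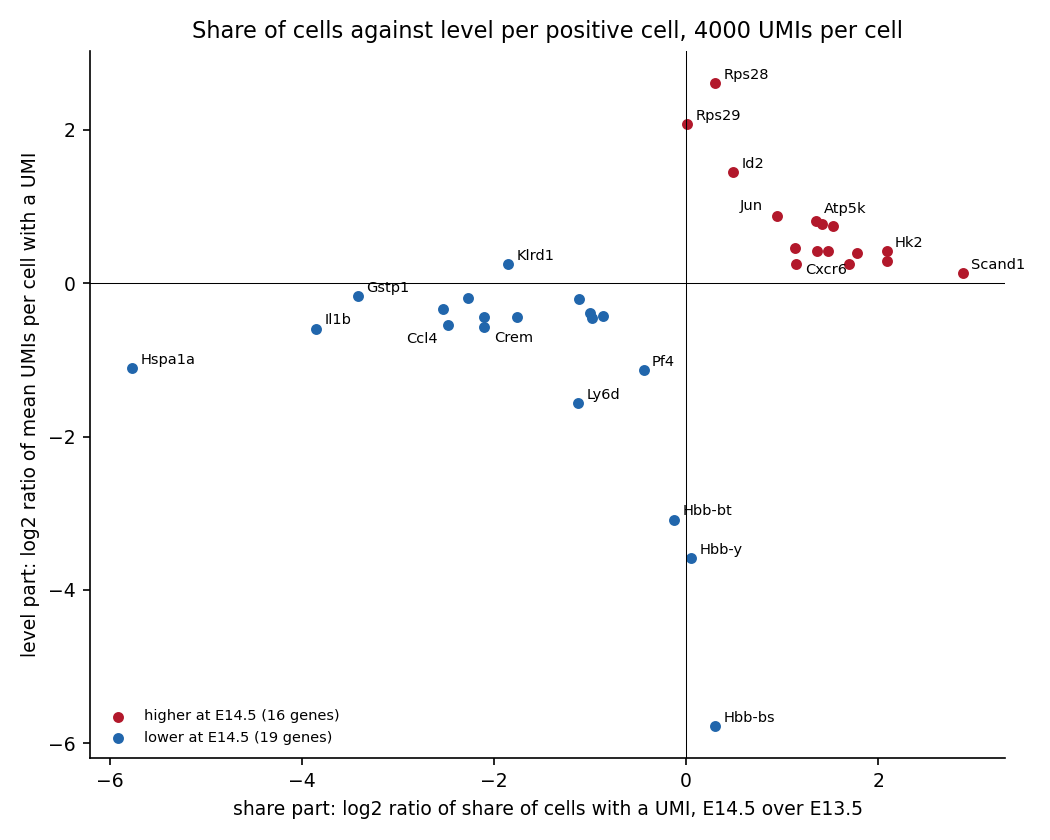
Log2 ratio of the share of cells with a UMI (x axis) against log2 ratio of UMIs per positive cell (y axis), E14.5 over E13.5 in thinned cells, each point a named called gene of at least 50 CPM. Id2 (0.49 and 1.45) and Rps28 (0.31 and 2.61) lie high on the y axis, while Hspa1a lies farthest to the left at -5.77.

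The 6 measured erythroid markers were all called lower, and most of their UMIs at E13.5 came from a few cells. Hbb-y, an embryonic beta globin gene, stood at 104 CPM at E13.5 and 10.9 CPM at E14.5 (-3.01), with thinned shares of 4.23 and 4.403% and 12.5 and 1.04 UMIs per positive cell. Summed erythroid markers came to 341 CPM at E13.5 and 34.8 CPM at E14.5, with 0 and 1 of 10 at 0, and 3 and 1 cells reached the erythroid class. When 1000 genes and no more than 5% of UMIs in mitochondrial genes were required, Hbb-y gave -0.19 and Hbb-bt 0.01, so those 2 calls rest on cells outside these limits.

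Mast cell, B lineage and myeloid markers described the other cells of the gate. Cma1, a chymase of mast cells, stood at 7.99 CPM at E13.5 and 44.6 CPM at E14.5 (1.70), and its mast cell or basophil list summed to 300.5 and 504 CPM. All 8 B lineage markers lay above 0, with a median of 0.42. They summed to 859 and 1499 CPM, while B lineage-class cells made up 7.39 and 7.90% of cells at median depths of 14581 and 19159 UMIs. All 7 measured monocyte or macrophage markers lay below 0, with C1qb (114 and 42.5 CPM, log2 fold -1.56), C1qa (-1.43) and C1qc (-1.41), the complement C1q chains, called lower. Pf4, a platelet chemokine, gave -1.49. Cd3g, a chain of the T cell receptor complex, was lower (147 and 73.2 CPM, log2 fold -1.19), and Cldn5, a tight junction gene, gave -1.21. Neither was called without centring (-0.96 and -0.98) or with 20 CPM added (-0.997 and -0.68), and without the trend in length Cd3g came to -0.94. With an equal mix of marker classes in both libraries C1qb came to -0.10 and Pf4 to -0.78, and neither was called. C1qb itself serves to draw the monocyte or macrophage class, so that setting cannot judge its call.

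The same comparison was made within the LTi class, 1024 cells at E13.5 and 2120 at E14.5, from their UMIs as deposited and without the 8 class markers. Of the class, 474 and 790 cells held exactly 3 markers, and 180 and 199 further cells held 2 and fewer of any other list. A median LTi-class cell held 5 and 6 UMIs of LTi markers, 5 and 5 of T cell genes, 1 and 1 of epithelial genes and 0 of each other list. Of 7126 measured genes 81 were higher at E14.5, which is 1.14%, and 126 were lower, which is 1.77%. Of these, 63 were also among the 105 higher genes of all cells, 77.8% of the former and 60.0% of the latter. Likewise 89 lower genes were shared, 70.6% of 126 and 53.3% of 167. Both comparisons share cells, so these overlaps are no independent support.

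Id2 stood at 589.9 CPM at E13.5 and 1886 CPM at E14.5 in the class, a log2 fold of 1.43. Asb2, a substrate adaptor of a ubiquitin ligase, gave 1.24, and Akirin1, a nuclear protein of chromatin remodelling, gave 1.36. Cxcr6 stood at 133 and 331 CPM (1.04). Cxcr5 (153 and 179.7 CPM) and Lta (381 and 472 CPM) served to draw the class, and their log2 folds of -0.01 and 0.07 are given as a description. Il7r gave 0.29 there.

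In B lineage-marker cells, 302 and 332 cells, 6469 genes were measured, of which 1.42% were higher and 1.61% lower. Of 5969 genes measured in both classes 0.704% were called higher in both and 0.72% lower in both. Of the higher genes of all cells 63 were measured in both classes and 36 were called in both. Of the lower genes 94 were measured in both and 40 were called in both. Of those 36, 30 had a level in B lineage-marker cells of at least 50% of that in the LTi class, while Id2 stood there at only 5.15 and 5.37% of it, Cxcr6 at 2.36 and 4.50% and Hk2 at 22.7 and 15.6%. Ltb, a gene of both lineages, stood at 4.91 and 5.20%. Genes called in the LTi class with a fold under 0.5 in B lineage-marker cells were Jun and Tcrg-C1 among the higher and 9 among the lower, Tnni2, Pld4, Tubb2a, Dusp2, Napsa, Tep1, Abi3, Rel and Nfkb1. Tcrg-C1, a constant segment of the T cell receptor gamma locus, gave 1.27 in the LTi class and -0.11 in B lineage-marker cells, and Pld4 -1.98 and -0.47. These genes were chosen after their values were seen, and the differences between the classes were not tested.

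**Figure D5:**
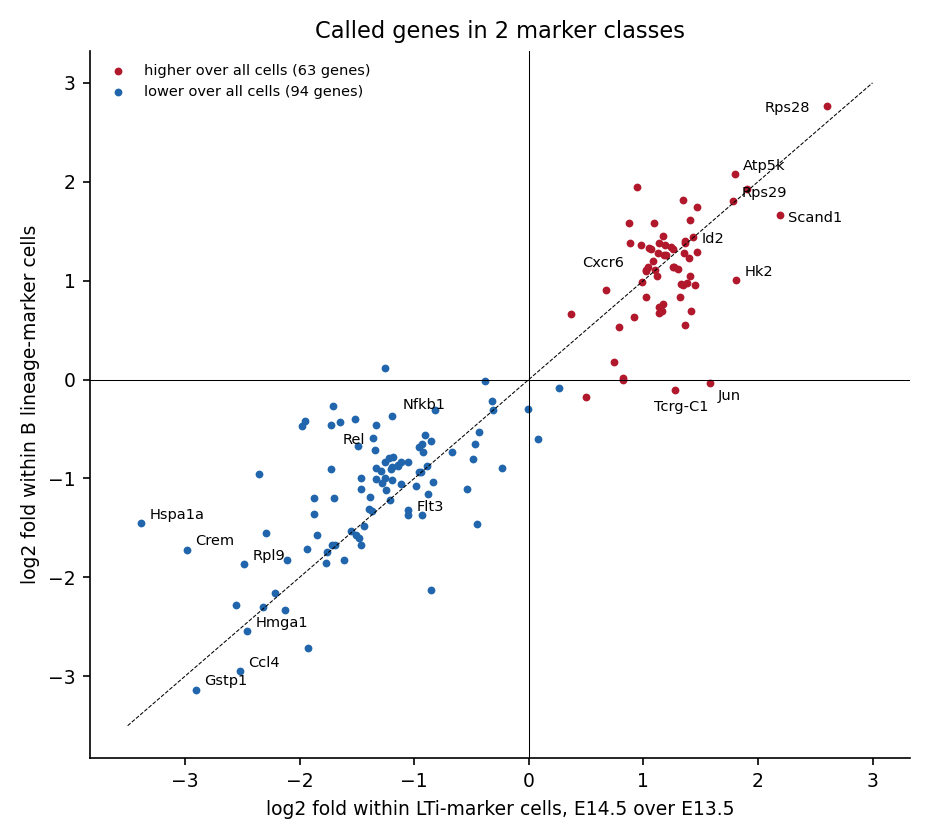
Log2 fold of E14.5 over E13.5 in B lineage-marker cells (y axis) against that in LTi-marker cells (x axis), each minus its own median, for the 63 higher and 94 lower genes of all cells measured in both classes. Jun lies at 1.58 on the x axis and -0.04 on the y axis, below most other higher genes.

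The same stages were compared in fetal liver, whose libraries were made with version 3 of the 10x Genomics 3′ kit instead of version 2. Of the 105 genes higher in periphery 60 were measured there, 5 were called in the same direction and 1 in the opposite. Of the 167 lower genes 129 were measured, 7 called in the same direction and 3 in the opposite. Of all 7750 genes measured in fetal liver 1.37% were higher at E14.5 and 0.31% lower. Id2 stood at 244 and 101 CPM in fetal liver (-1.20, against 1.67 in periphery), and Ly6d at 17.4 and 191 CPM (3.16, against -2.42). Cxcr6 stood at 1.28 and 7.94 CPM in fetal liver (1.07), under the 10 CPM taken as measured, so it was not called there. Jun gave 0.51 and Crem 0.16 there. Hk2 (8.205 and 9.43 CPM) and Hspa1a (0.515 and 0.444 CPM) stayed under 10 CPM in fetal liver and were not measured there. Kit and tissue coincide, so they cannot be told apart in any difference between the tissues, and with 1 library per group none was tested.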

How the data were processed

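Single-cell 3′ RNA counts of sorted mouse cells were analysed from the deposited matrices, which hold raw UMI counts per gene and barcode. Per the submitters' processing notes the authors made these counts with Cell Ranger 3 on mm10. The headers of the files name 3.0.1 for periphery and 3.0.0 for fetal liver. The gene model release is not given in the sources used here. Periphery libraries used version 2 of the 10x Genomics kit and fetal liver version 3, per the labels' protocols.

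Barcodes were kept with 500 genes or more and no more than 10% of UMIs in mitochondrial genes, 4305 of 4531 at E13.5 and 4505 of 5008 at E14.5. In the E13.5 and E14.5 periphery libraries 97 and 312 barcodes were under the gene minimum and 177 and 322 over the mitochondrial limit. No doublets were removed. In an alternative Scrublet in scanpy 1.11.5 marked 140 (3.25%) and 151 (3.35%) cells, set by an expected rate of 0.8% per 1000 barcodes. UMIs were summed per library with numpy 2.4.6, scipy 1.17.1 and pandas 2.3.3 in Python 3.11.15. Folds were computed as described with the values, and code was tested on simulated data. Thinning used seed 1. Exact Poisson and Clopper-Pearson 95% intervals cover counting error only. Transcript lengths, shared ends and coordinates came from GENCODE M21 on GRCm38, length trends from lowess in statsmodels 0.14.6, promoters from RefSeq.

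Genes were named by a rule. It took the 12 highest and 12 lowest folds at 50 CPM or more, the 4 largest share parts and level parts among called genes, 13 genes of LTi biology and stress, and the highest and lowest member of each list. Further members of the lists are given with their values, and some genes are not reported here. Genes, lists and members were chosen with earlier results of these data known. Alternatives were 15 settings of scaling, filters, added CPM, cell selection and class mix, 3 of them (length and shared ends) chosen after seeing the data.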

Additional observations from a re-analysis of the deposited data

Results flagged for a closer look

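Id2 moved in opposite directions in the 2 tissues, with log2 folds of 1.67 in periphery and -1.20 in fetal liver, a difference of 2.87. Ly6d did so the other way round, with -2.42 in periphery and 3.16 in fetal liver, a difference of -5.58. With 1 library per group neither difference was tested, and kit and tissue cannot be told apart.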

How the results depend on the processing

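Over the 15 settings 1 of 53 named called genes, Hbb-bt, changed sign, and the number of calls depended on the added CPM, the minimum and centring. Of 105 genes higher at E14.5 the count became 191 with 1 CPM added, 38 with 20 CPM added and 235 without centring. Of 167 lower genes it became 80 with 20 CPM added, 75 with a 50 CPM minimum and 107 without centring. In the LTi class the 81 higher genes became 140 with 1 CPM added, 33 with 20 CPM added and 163 without centring, and the 126 lower genes 58 with 20 CPM added and 50 with a 50 CPM minimum. The other settings kept these counts within 1.5 times. Leaving out transcripts under 600 bases gave 94 and 159 genes, and leaving out shared 3′ ends 84 and 141. Of 53 named called genes all kept their sign with 20 CPM added and 42 were still called. With an equal mix of marker classes 50 of 51 kept their sign and 41 were still called. Among the calls lost there were Ly6d, Siglech, C1qb, Pf4, Il23r, H2-DMa, Hbb-y and Nfkb2. Of these, Ly6d, Siglech, C1qb and Il23r are markers of classes in the mix, so that setting cannot judge their calls. Nor can it judge the call of Hbb-y, a marker of the erythroid class, which the mix left out. Calls lost with 20 CPM added included those of Tgfb1 (0.80), Meg3 (0.91), Pgk1 (-0.94) and Hba-x (-0.69).

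Hbb-bt, at -2.12, turned to 0.00887 when 1000 genes and no more than 5% mitochondrial UMIs were required and to 0.34 with the equal mix, and the median of erythroid markers to 0.000811 with the equal mix. The group 1 ILC or NK median, -0.61, turned to 0.19 with transcripts under 600 bases left out, which leaves fewer genes. No paired analysis was possible because each stage has 1 library. Depth limits the split of changes, since a thinned level near 1 UMI cannot fall, and the class shares move with it.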

Other observations

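Other genes of the LTi class, chosen here after their values were seen, were lower at E14.5 without belonging to a list. Litaf, a membrane adaptor induced by lipopolysaccharide, stood at 53.1 CPM at E13.5 and 8.36 CPM at E14.5 in the class (-2.36). Il1r2, the decoy receptor of interleukin 1, stood at 99.1 and 21.9 CPM (-2.19), and Cfp, which encodes properdin of the complement system, at 151 and 38.1 CPM (-2.09). Plac8 stood at 105 and 21.3 CPM in the class (-2.30), and over all cells at 1137 and 307 CPM. Plac8 was also lower in B lineage-marker cells (-1.55), at 2680.1 and 1012 CPM.

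S100a8, a calcium-binding protein of neutrophils, came to 0.579 CPM in the LTi class at E13.5 and 48.2 CPM at E14.5. Over all cells it was at 23.9 and 36.5 CPM, with thinned shares of 0.294 and 2.02% and 58.5 and 2.71 UMIs per positive cell. At E14.5 a single LTi-class cell held 830 of the 905 S100a8 UMIs of the class, and without it the class came to 3.997 CPM. Another cell, of under 4000 UMIs in all, held 551 further UMIs. The E13.5 library had 1265 S100a8 UMIs in 33 cells, 576 of them in 1 cell, and the E14.5 library 1613 in 193 cells. Xist stood at 508 and 641 CPM and the Y-linked gene Ddx3y at 17.9 and 20.2 CPM over all cells, so both libraries held female and male RNA in similar proportions by these genes (0.10 and -0.09).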
